A study of Mus musculus with 3 samples.

Results

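Accessible chromatin was examined at the loci of 6 regulators of naive pluripotency, Esrrb, Tfcp2l1, Tbx3, Prdm14, Zfp42 and Nr5a2, in mouse embryonic stem cells expressing a Halo-tagged form of Sox2. The members are all peaks whose midpoint lay inside the body of any of these genes or within 50 kb of it. They were 75 of the 88898 peaks of the Halo-Sox2 library, 94 of the 83995 peaks of the Halo-Sox2a library and 66 of the 72638 peaks of the control library. Overlapping peaks of the 3 lists were merged into union regions, of which the loci held 120 of the 130664 found across the genome.

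ATAC-seq, in which the Tn5 transposase cuts and tags open DNA, was done on 3 lines derived from CGR8 mouse embryonic stem cells, with 1 library each. SES4.1 carried a doxycycline-inducible Halo-Sox2 transgene and received 300 ng/mL doxycycline for 20 h. SES5.1 carried an inducible Halo-Sox2a transgene, a form that the labels name without describing, and received 70 ng/mL for 20 h. SES11, the control line, had no inducible transgene, and the labels give it no doxycycline dose and leave unstated any staining or sorting of its cells. The Halo proteins were stained with 50 nM of a fluorescent Halo ligand, and both transgenic lines were sorted within an identical gate of fluorescence. All lines grew in medium with serum, leukemia inhibitory factor (LIF), the GSK3 inhibitor CHIR99021 and the MEK-pathway inhibitor PD184352, so the control cells too were kept under conditions that hold the naive state. Each line stands for its condition alone, which means that line, transgene, dose and sort cannot be told apart from the protein expressed.

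Naive pluripotency is the state of the preimplantation epiblast, and in culture it is held by a network of transcription factors that receive LIF and WNT signals. Esrrb and Nr5a2 are orphan nuclear receptors, Tfcp2l1 is a CP2-family factor and Tbx3 a T-box factor, and these act within the network to keep self-renewal going. Prdm14 is a PR-domain protein that dampens FGF signalling and DNA methylation, and Zfp42 (also called Rex1) encodes a zinc finger protein whose expression is a standard marker of the naive state. Sox2 and its partner Pou5f1 bind enhancers near many genes of this kind.

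A whole-number score deposited for each peak, on a scale that is not stated, was the only measure of peak size. It was turned into a percentile within its own list, where 100 is the highest score, and it describes the order of peaks in that library alone. Depth is unknown, and a site without a peak in a library may have fallen short of its calling threshold by little. No library had a replicate, so replicate error is unknown and no test was made. As a check of the labelled cell type, a peak lay within 1 kb of the start or an end of 7 of 7 embryonic stem cell marker genes in the control and Halo-Sox2a lists and of 6 of 7 in the Halo-Sox2 list, where Nanog had none. Peaks were also found at 16 to 17 of 18 marker genes of neural, endodermal, mesodermal, trophoblast and fibroblast cells, so peak presence did not set the labelled cell type apart. The Halo-Sox2a library stood apart at the Sox2 gene itself, where its peak ranked 2 in the list. At Sox2 the Halo-Sox2 peak was at percentile 81.7 and the control peak at 64.5. Both transgenic lines carry an added Halo-Sox2 or Halo-Sox2a sequence, and its share in these peaks was not tested. The peaks at Sox2 are therefore not read as opening of the native gene. None of the 6 genes lies on the chromosome of Sox2.

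The sequence at the start of transcription is shown for the 4 RefSeq promoter windows of these genes that a peak overlapped in every list, so that the sequence can be read beside the peaks that cover it. Each window runs from 250 bases before the annotated start to 50 bases after it, in the direction of transcription, on assembly GRCm38.p6. Capitals mark matches on either strand to the searched motifs, which were CATTGT (SOX), ATGCAAA (octamer), AAGGTCA (the core bound by ESRRB and NR5A2), GGGTGTGG (KLF) and TTCCNGGAA (STAT). Where a window has no capitals, none of these letter strings occurred in it.

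Zfp42, chr8:43306960-43307259, minus strand: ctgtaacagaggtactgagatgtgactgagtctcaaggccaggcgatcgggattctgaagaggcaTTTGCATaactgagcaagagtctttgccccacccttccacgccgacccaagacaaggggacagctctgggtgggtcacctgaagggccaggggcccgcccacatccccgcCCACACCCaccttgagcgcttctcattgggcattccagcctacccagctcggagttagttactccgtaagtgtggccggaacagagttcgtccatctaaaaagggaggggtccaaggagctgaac

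Esrrb, downstream start, chr12:86421394-86421693, plus strand: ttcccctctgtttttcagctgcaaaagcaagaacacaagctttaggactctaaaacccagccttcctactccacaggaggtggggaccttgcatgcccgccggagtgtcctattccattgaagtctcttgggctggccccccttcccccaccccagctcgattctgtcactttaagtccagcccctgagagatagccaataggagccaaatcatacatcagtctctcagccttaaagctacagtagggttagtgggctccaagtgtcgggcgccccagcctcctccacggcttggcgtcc

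Nr5a2, downstream start, chr1:136953581-136953880, minus strand: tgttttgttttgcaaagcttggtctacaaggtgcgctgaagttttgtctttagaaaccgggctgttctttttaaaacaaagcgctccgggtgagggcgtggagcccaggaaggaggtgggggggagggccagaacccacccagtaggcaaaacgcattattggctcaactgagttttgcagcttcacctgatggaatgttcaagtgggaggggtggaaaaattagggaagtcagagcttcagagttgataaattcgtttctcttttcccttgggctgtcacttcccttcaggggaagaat

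Tfcp2l1, chr1:118627695-118627994, plus strand: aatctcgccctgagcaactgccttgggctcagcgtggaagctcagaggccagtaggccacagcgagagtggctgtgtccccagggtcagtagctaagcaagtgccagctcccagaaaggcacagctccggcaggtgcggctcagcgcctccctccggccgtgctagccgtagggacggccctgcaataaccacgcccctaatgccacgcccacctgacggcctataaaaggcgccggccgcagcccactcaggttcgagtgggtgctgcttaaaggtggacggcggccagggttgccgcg

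The Zfp42 window held an octamer match that began 185 bases before the start and a KLF match that began 75 bases before it, both on the strand opposite to the gene. Across all 32851 promoter windows of the table, 4.63% had an octamer match, 3.56% a KLF match, 12.6% a SOX match, 4.72% a match to the ESRRB and NR5A2 core and 1.15% a STAT match. The GC content was 57.7% in the Zfp42 window, 55.3% in the Esrrb window, 49.0% in the Nr5a2 window and 65.3% in the Tfcp2l1 window, against a median of 52.7% over all windows (quartiles 45.7 and 61.7%). The Tfcp2l1 window held 21 CG dinucleotides, the Zfp42 window 11, and the Esrrb and Nr5a2 windows 7 each, against a median of 7 (quartiles 3 and 20). A match is a run of letters and was not tested as a binding site.

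Esrrb and Nr5a2 each have a further annotated start upstream, and neither of these carried a peak in any library. The upstream Esrrb start lies at position 86361117 of chromosome 12 and the upstream Nr5a2 start at position 136960448 of chromosome 1. The upstream Esrrb window held a SOX match that began 32 bases after the start, and the upstream Nr5a2 window held no match to any of the 5 motifs. The first base of transcription lay under a peak at 4 of the 6 annotated starts with Halo-Sox2 and Halo-Sox2a and at 3 of 6 in the control, where the Nr5a2 peak covered 237 of the 300 bases of the window without reaching the start itself. Over all 32851 annotated starts, 43.0% lay under a Halo-Sox2 peak, 43.6% under a Halo-Sox2a peak and 42.5% under a control peak.

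Across the 120 regions, 41 were held by all 3 lists (34.2%, 95% Wilson interval 26.3 to 43.0%), close to the 32.1% of all union regions. Regions held by Halo-Sox2 alone numbered 17 (14.2%, 9.04 to 21.5%), against 24.3% of all regions, and regions of Halo-Sox2a alone numbered 27 (22.5%, 15.9 to 30.8%), against 12.2%. The order of these classes at the pooled loci was thus the reverse of that over the genome. Tfcp2l1 and Zfp42 went the other way, each with 2 regions of Halo-Sox2 alone and 1 of Halo-Sox2a alone. Both transgene lists without the control held 14 regions (11.7%, 7.08 to 18.6%, against 8.95%), and Halo-Sox2a with the control held 12 (10.0%, 5.81 to 16.7%, against 10.3%). The control alone held 7 (5.83%, 2.85 to 11.6%, against 10.2%), and Halo-Sox2 with the control held 2 (1.67%, 0.458 to 5.87%, against 1.90%). The intervals cover counting error only, and neighbouring regions of a locus are not independent, so nothing is called particular to the loci from these shares.

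Counted by peaks, 31 of the 75 Halo-Sox2 peaks at the loci (41.3%, 30.9 to 52.6%) met no control peak, against 49.3% over the whole list. For Halo-Sox2a the count was 41 of 94 (43.6%, 34.0 to 53.7%), against 33.4%. Taken from the control side, 23 of its 66 peaks (34.8%, 24.5 to 46.9%) met no Halo-Sox2 peak, against 37.5%, and 9 of 66 (13.6%, 7.34 to 23.9%) met no Halo-Sox2a peak, against 22.0%. Where an overlap had to cover 50% of both peaks, 45.5% of control peaks met no Halo-Sox2 peak and 40.9% met no Halo-Sox2a peak, so the gap between the libraries was largely lost under that setting. The median percentile of the peaks at the loci was 51.1 with Halo-Sox2, 51.1 with Halo-Sox2a and 44.0 for the control, where the median of a whole list lies at 50.0, 50.2 and 50.0. Within gene bodies only, these medians were 56.9, 50.5 and 60.7, so the control went from the lowest to the highest of the 3. From percentile 90 up there were 7 Halo-Sox2 peaks at the loci (9.33%), 11 Halo-Sox2a peaks (11.7%) and 8 control peaks (12.1%), all near the 10% that the top decile of a list holds by construction.

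**Figure D1:**
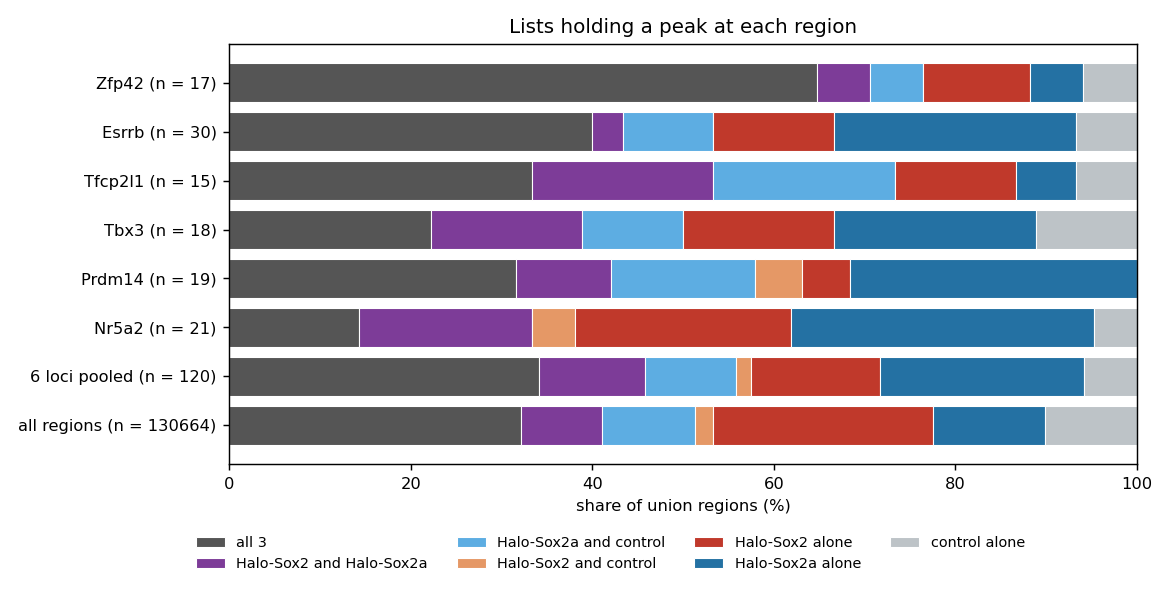
Share of union regions (%, horizontal axis) by the lists that held a peak there, for each locus, for the 6 loci pooled and for all regions of the genome, with the number of regions in brackets. The Zfp42 bar has the longest part held by all 3 lists (11 of 17 regions) and the Nr5a2 bar the shortest (3 of 21).

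The loci differed in how much of their accessible chromatin the control list already held. Of the 120 regions, 58 (48.3%, 39.6 to 57.2%) had no control peak, against 45.5% of all union regions. This count was 4 of 17 at Zfp42 (23.5%), 6 of 15 at Tfcp2l1 (40.0%), 13 of 30 at Esrrb (43.3%), 9 of 19 at Prdm14 (47.4%), 10 of 18 at Tbx3 (55.6%) and 16 of 21 at Nr5a2 (76.2%, 54.9 to 89.4%). Zfp42 and Nr5a2 were the ends of the range. The same share was taken for each of the 12171 protein-coding genes with at least 10 regions, which often share regions with their neighbours, and it had a median of 38.9% (quartiles 28.6 and 50.0%). It was lower than the Nr5a2 value in 99.0% of these genes and lower than the Zfp42 value in 15.6%. These places among genes are for the window of 50 kb and the full lists. The Nr5a2 share was 58.6% within 100 kb, 86.7% within 20 kb and 66.7% with lists of equal size, and no place among genes is given for these settings. Nr5a2 was singled out here after its values were seen. Of its 16 regions with no control peak, 4 were in both transgene lists, 5 in Halo-Sox2 alone and 7 in Halo-Sox2a alone. The percentiles at these 16 regions ran from 4.33 to 79.5 with Halo-Sox2 and from 0.804 to 55.9 with Halo-Sox2a. Over all peaks at this locus, with or without a control peak, the median percentile was 28.0 with Halo-Sox2 and 33.2 with Halo-Sox2a.

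**Figure D2:**
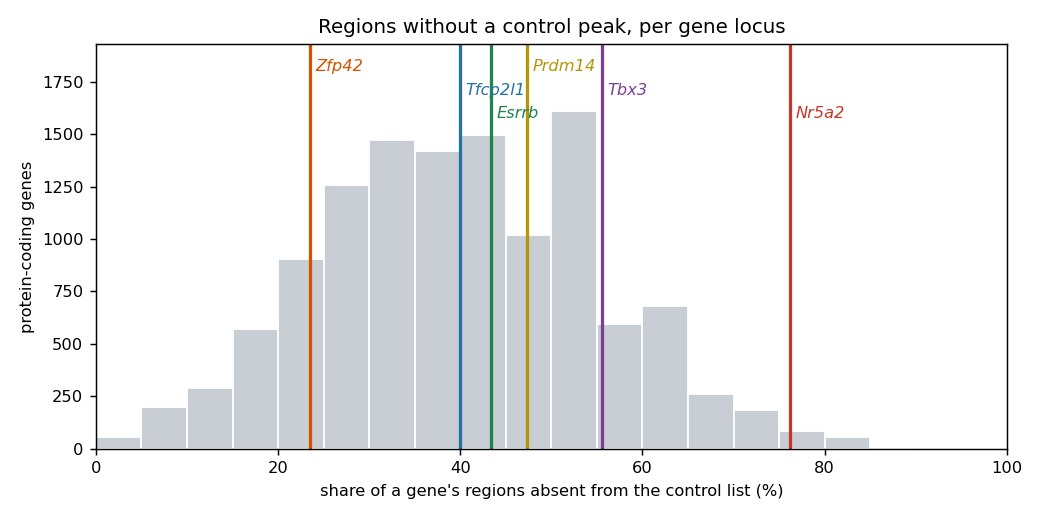
Number of protein-coding genes (vertical axis) by the share of their regions that had no control peak (%, horizontal axis, bins of 5 points), with vertical lines for the 6 genes. Nr5a2, at 76.2%, lies in the upper tail, and the other 5 genes lie between 23.5 and 55.6%.

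Zfp42 (chr8:43295067-43307009) held the highest-scoring peaks of the 6 loci in the control and Halo-Sox2a lists, and the same sites carried peaks in the Halo-Sox2 list. The region over its start (chr8:43306716-43307295, 580 bp) stood at percentile 97.6 with Halo-Sox2, 99.1 with Halo-Sox2a and 99.8 in the control. A region upstream of the start, outside any gene (chr8:43320541-43321427, 887 bp), stood at percentile 97.7, 99.9 and 99.9 in the same order, and ranked 2029 with Halo-Sox2, 84 with Halo-Sox2a and 79 in the control. Both regions were thus near the top of every list, with Halo-Sox2 the lowest of the 3.

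Further upstream of Zfp42, the libraries differed in which peak stood high. The region 24.9 kb upstream (chr8:43331568-43332164) was at percentile 76.0 with Halo-Sox2, 94.4 with Halo-Sox2a and 70.8 in the control, and a region 26.6 kb upstream (chr8:43333499-43333797) was at 64.7, 74.6 and 75.7. A region 21.8 kb upstream (chr8:43328656-43328993) had no Halo-Sox2 peak, and was at percentile 59.6 with Halo-Sox2a and 22.5 in the control. On these whole-list percentiles Halo-Sox2a was highest at the first and the third of these, and just under the control at the second. Ranked only among the regions that all 3 lists held, the second was at 53.6 with Halo-Sox2, 53.4 with Halo-Sox2a and 60.7 in the control.

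On the other side of the gene, a region 0.466 kb beyond the body (chr8:43294290-43294913) had a peak at percentile 51.1 with Halo-Sox2 and 72.0 with Halo-Sox2a and none in the control. A region 30.0 kb beyond it (chr8:43264764-43265315) had a peak with Halo-Sox2 alone, at percentile 51.0. Of the other 10 regions of the locus, 7 were held by all 3 lists, and Halo-Sox2 alone, Halo-Sox2a alone and the control alone each held 1.

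Esrrb (chr12:86361117-86521628), the largest body among the 6 at 161 kb, had the most regions, with 12 of 30 held by all 3 lists, 8 by Halo-Sox2a alone and 4 by Halo-Sox2 alone. The region over its downstream start (chr12:86421322-86422877) stood at percentile 61.7 with Halo-Sox2, 60.2 with Halo-Sox2a and 71.0 in the control. The highest region of the locus lay inside the gene, 80.4 kb past that start (chr12:86501556-86502487), at percentile 93.9, 96.0 and 91.2 in the same order. The start of this gene was therefore not its highest-scoring site in any library.

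A region 49.6 kb past the downstream start of Esrrb (chr12:86470749-86471712) was at percentile 77.2 with Halo-Sox2, 91.2 with Halo-Sox2a and 80.2 in the control. A region 11.8 kb past it (chr12:86433198-86433721) was at 64.2, 87.1 and 78.5. Halo-Sox2a was the highest at both. Regions held by part of the lists with a percentile of 50 or more were few at Esrrb. They were a Halo-Sox2 peak at percentile 56.9 (chr12:86441397-86441968), a Halo-Sox2a peak at percentile 52.2 (chr12:86463066-86463413), and a region at percentile 55.7 with Halo-Sox2a and 25.9 in the control (chr12:86489897-86490491).

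Tfcp2l1 (chr1:118627923-118685168) had the highest-scoring region with no control peak among the 6 loci. It lay 4.71 kb beyond the end of the gene, outside any gene (chr1:118689536-118690229, 694 bp), and stood at percentile 99.3 with Halo-Sox2 (rank 591) and 83.1 with Halo-Sox2a (rank 14198). Inside the gene, 14.9 kb past the start, a region of all 3 lists (chr1:118642368-118643241) stood at percentile 99.0 with Halo-Sox2 (rank 862), 97.1 with Halo-Sox2a (rank 2425) and 70.6 in the control (rank 21316). Both transgene libraries thus placed this site among their highest peaks and the control did not. A neighbouring region 20.3 kb past the start (chr1:118647714-118648713) was high in every list, at percentile 95.0, 97.3 and 96.6 with Halo-Sox2, Halo-Sox2a and in the control.

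The region over the Tfcp2l1 start (chr1:118627638-118628413) was at percentile 68.8 with Halo-Sox2, 81.3 with Halo-Sox2a and 58.5 in the control. Regions of part of the lists included a peak inside the gene at percentile 34.2 with Halo-Sox2 and 61.1 with Halo-Sox2a (chr1:118645784-118646136), and another inside it with Halo-Sox2 alone at percentile 70.2 (chr1:118676621-118677084). Upstream, within the neighbouring gene Clasp1, a Halo-Sox2 peak was at percentile 57.8 (chr1:118577941-118578676). A second region in Clasp1 (chr1:118597193-118597851) was at percentile 82.7 with Halo-Sox2a and 29.3 in the control and had no Halo-Sox2 peak. The peaks at this locus had a median percentile of 76.0 with Halo-Sox2 (10 peaks), 71.2 with Halo-Sox2a (12) and 29.3 in the control (9). This was the widest spread of the 6 loci, though Tbx3 came close to it with medians of 67.1, 47.6 and 21.2 in the same order.

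Tbx3 (chr5:119670534-119684724) had its highest region over the lower end of its body, where the non-coding gene Tbx3os1 overlaps it (chr5:119669986-119671558, 1573 bp). It stood at percentile 89.7 with Halo-Sox2, 98.2 with Halo-Sox2a and 93.4 in the control. A region inside the gene (chr5:119679788-119680932) was at 80.0, 91.1 and 92.8, and a region 25.4 kb beyond the upper end (chr5:119709782-119710379) was at 67.7, 77.4 and 81.1. On these whole-list percentiles Halo-Sox2 was the lowest of the 3 libraries at each. Ranked only among the regions that all 3 lists held, the third was at 57.0 with Halo-Sox2, 57.9 with Halo-Sox2a and 68.7 in the control. Without a control peak were a region 22.0 kb beyond the upper end (chr5:119706458-119707048), at percentile 66.5 with Halo-Sox2 and 48.3 with Halo-Sox2a, and a region 36.3 kb beyond it (chr5:119720569-119721458), at 73.8 and 69.5. Between these, a region 28.2 kb beyond the end (chr5:119712619-119713316), named after its values were seen, was at percentile 70.5 with Halo-Sox2, 61.3 with Halo-Sox2a and 1.51 in the control. At these 3 sites both transgene lists held a peak and the control had none or a very low one. The sites without a control peak were named for being held by part of the lists. The site 28.2 kb beyond the end was named for its values. Their shared pattern follows from this choice and cannot be used to compare the libraries. The region 25.4 kb beyond the end, which lies among these sites, was highest in the control. Of the 18 regions at Tbx3, 3 were held by both transgene lists without the control and 2 by the control alone.

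Prdm14 (chr1:13113428-13127163) had no region of all 3 lists inside its body, and its highest regions lay outside it. The highest, 28.3 kb below the lower end and outside any gene (chr1:13084711-13085597), was at percentile 84.4 with Halo-Sox2, 97.6 with Halo-Sox2a and 98.0 in the control. The next, 9.21 kb below it in the non-coding gene Gm39592 (chr1:13103418-13105011), was at 53.2, 88.1 and 89.1, and a region 4.95 kb beyond the upper end (chr1:13131739-13132491) was at 74.0, 70.6 and 60.2. Halo-Sox2 was lowest at the former pair of sites and highest at the latter.

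Over the upper end of the Prdm14 body, a region chosen after its values were seen (chr1:13126329-13127300) had peaks at percentile 29.3 with Halo-Sox2 and 35.2 with Halo-Sox2a and none in the control. Next to it, a Halo-Sox2a peak at percentile 64.3 (chr1:13127969-13128238) had no counterpart. A Halo-Sox2a peak at percentile 52.0 lay in the neighbouring gene Ncoa2, which encodes a coactivator of nuclear receptors (chr1:13151181-13151556). Lower in the window, a region was at percentile 56.5 with Halo-Sox2 and 45.4 with Halo-Sox2a without a control peak (chr1:13079633-13080184), and another at 33.3 with Halo-Sox2a and 57.6 in the control without a Halo-Sox2 peak (chr1:13069445-13069929). Of the 19 regions at Prdm14, 6 were of Halo-Sox2a alone and none of the control alone.

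Nr5a2 (chr1:136842562-136960448) had 5 control peaks against 13 with Halo-Sox2 and 14 with Halo-Sox2a. The region over its downstream start (chr1:136952617-136954438, 1822 bp) was at percentile 66.2 with Halo-Sox2 (rank 30003), 94.4 with Halo-Sox2a (rank 4722) and 96.7 in the control (rank 2356). It was the highest region of the locus in the control and Halo-Sox2a lists and not in the Halo-Sox2 list. The own peaks there were 1624 bp wide with Halo-Sox2, 1822 bp with Halo-Sox2a and 734 bp in the control.

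Inside the Nr5a2 body, 5 further regions at percentile 50 or more in a list had no control peak. A region 74.4 kb past the downstream start (chr1:136878504-136879886) was at percentile 79.5 with Halo-Sox2 and 15.2 with Halo-Sox2a, and a region nearer to it (chr1:136940280-136941048) was at 73.7 and 48.5. Halo-Sox2 alone had peaks 7.85 kb past the start at percentile 77.2 (chr1:136945418-136946147) and 21.7 kb past it at percentile 60.1 (chr1:136931789-136932155). Halo-Sox2a alone had a peak 2.15 kb past the start at percentile 55.9 (chr1:136951376-136951574) and another 24.3 kb upstream of the gene at percentile 53.7 (chr1:136984515-136984991). These 6 regions were named for reaching percentile 50 in a list, so their percentiles cannot be used to compare the libraries. A region 48.5 kb upstream (chr1:137008781-137009096) was at percentile 28.0 with Halo-Sox2 and 53.4 in the control and had no Halo-Sox2a peak.

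**Figure D3:**
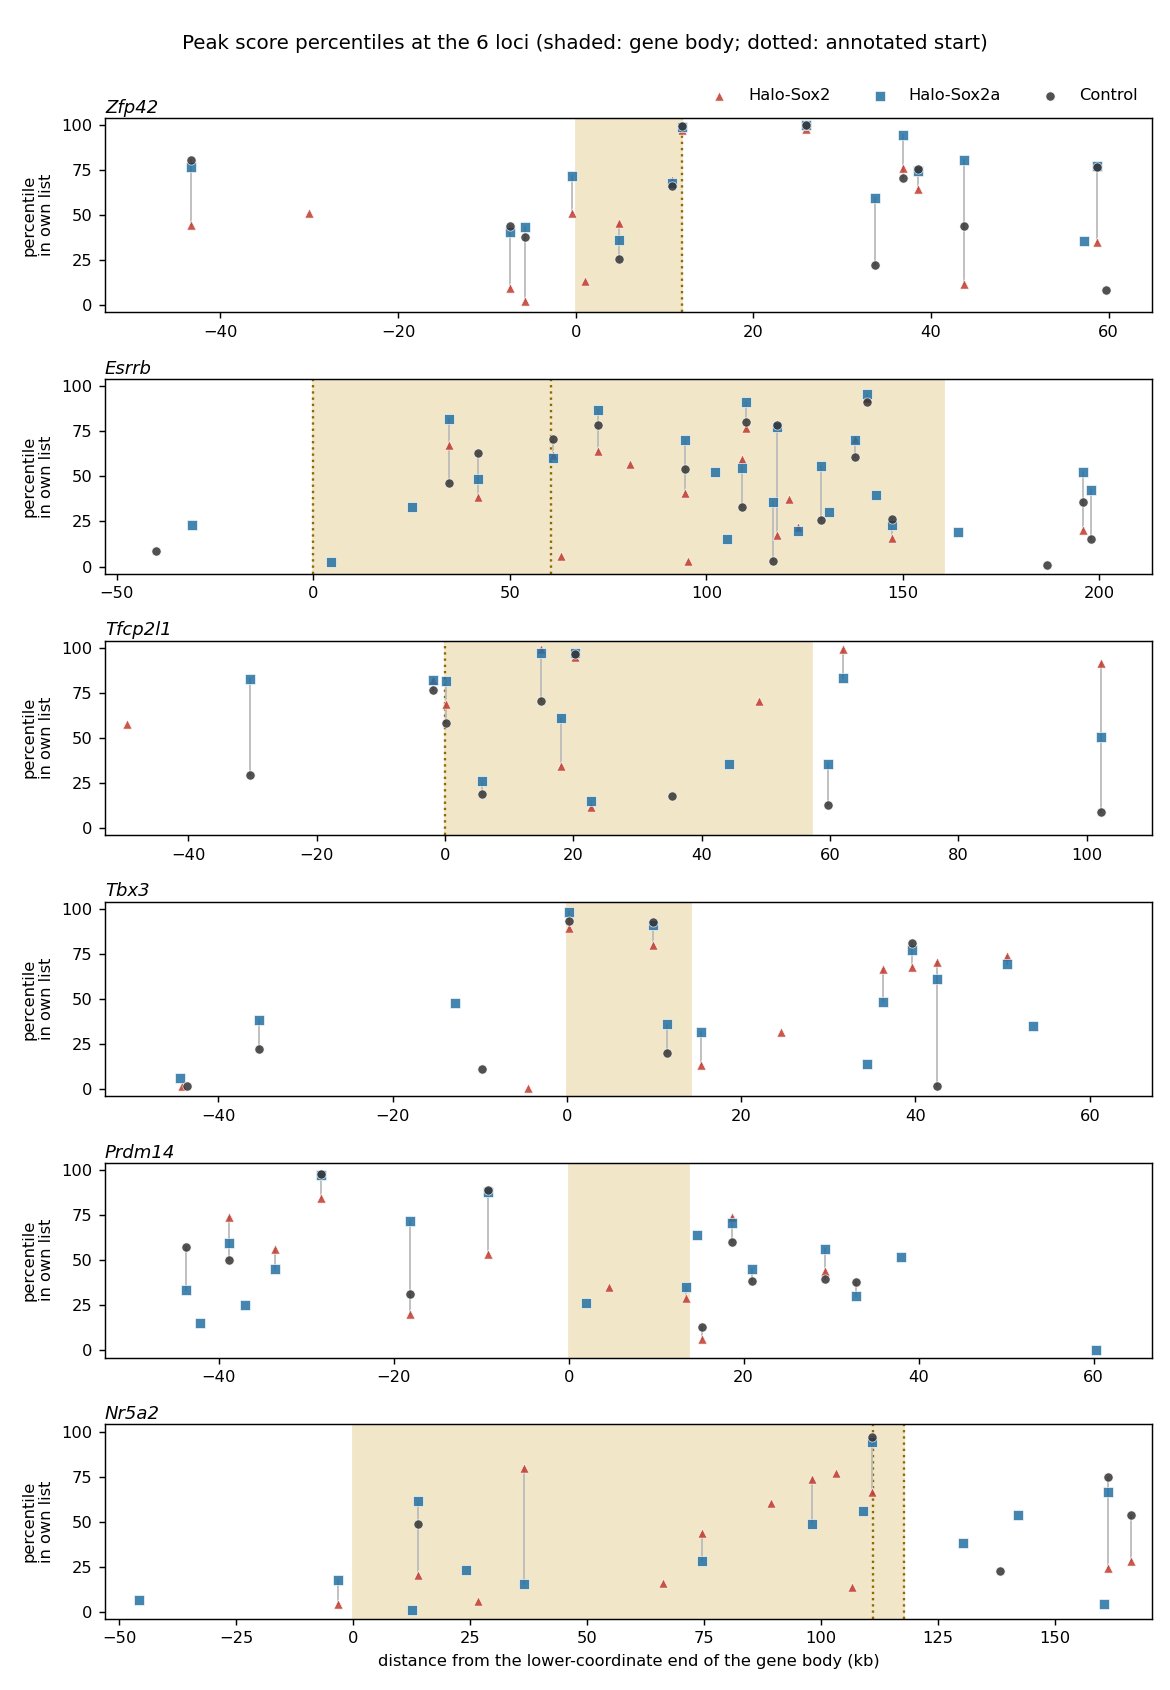
Percentile of each peak's score within its own list (vertical axis, 100 is the highest) against the distance of the union region's midpoint from the lower-coordinate end of the gene body (kb), with 1 panel per locus, 1 symbol per library and grey lines joining the libraries at a region; where a list had several peaks in a region the highest is drawn. Shading marks the gene body and dotted lines the annotated starts; the high points at the Zfp42 start (97.6 to 99.8) occur in all 3 libraries, and the Nr5a2 body carries few control points.

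The 41 regions held by all 3 lists allowed the order of sites to be compared on an equal footing. For this, every library was ranked over the same 41984 regions of the genome that all 3 lists held, so that its percentiles ran over a set of one size. Both comparisons with the control share that library. Halo-Sox2 stood at least 20 points above the control at 10 of the 41 regions (24.4%), against 17.5% of all such regions, and at least 20 points below at 6 (14.6%), against 18.6%. Halo-Sox2a stood at least 20 points above the control at 8 (19.5%), against 14.1%, and at least 20 points below at 2 (4.88%), against 14.2%. Halo-Sox2 stood at least 20 points above Halo-Sox2a at 5 regions (12.2%), against 14.4%, and at least 20 points below it at 11 (26.8%), against 14.8%. The median difference over the 41 regions was -3.47 points for Halo-Sox2 minus control, 3.53 for Halo-Sox2a minus control and -6.24 for Halo-Sox2 minus Halo-Sox2a, against -1.60, -0.51 and -0.39 over all 41984 regions. Halo-Sox2 was higher than the control at 16 of the 41 regions and lower at 25, against 19270 higher and 22710 lower among all 41984. Percentiles of the whole lists were an alternative chosen after seeing the data, and on them the whole set of shared regions is itself shifted, with median differences of -5.22, 1.77 and -7.17 points in the same order. On that scale Halo-Sox2 was higher than the control at 15 of the 41 regions and lower at 26, with a median difference of -9.25 points. It stood at least 20 points above the control at 6 regions, against 12.6% of all shared regions, and at least 20 points below at 11, against 24.5%. Halo-Sox2a stood that far above the control at 9 regions, against 16.5%, and that far below at 0, against 8.44%. Halo-Sox2 stood that far above Halo-Sox2a at 1 region, against 6.37%, and that far below at 14, against 26.3%. The counts past 20 points between Halo-Sox2 and the control thus changed sides with the set that was ranked. More regions were lower than higher with Halo-Sox2 under both. The median over all shared regions was negative under both too, so this direction is not particular to the loci.

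By gene, Tfcp2l1 had the greatest share of regions placed higher with the transgenes. Of its 5 shared regions, 3 stood at least 20 points above the control with Halo-Sox2 and 3 with Halo-Sox2a. With Halo-Sox2, the region over the start passed that mark only just, at 20.0 points, and was 10.3 points above on whole-list percentiles. With Halo-Sox2a, the region 45.0 kb beyond the gene passed at 20.7 points, and was 41.5 points above on whole-list percentiles. At the region 14.9 kb past its start, the percentile among shared regions was 98.4 with Halo-Sox2, 94.2 with Halo-Sox2a and 53.4 in the control. At a region 45.0 kb beyond the gene (chr1:118729734-118730533), it was 87.6, 23.0 and 2.32. The Nr5a2 regions went the other way, since all 3 were lower with Halo-Sox2 than in the control, with a median difference of -39.1 points, and 1 of 3 was higher with Halo-Sox2a than in the control, with a median difference of -5.57. The region over the Nr5a2 start was at 55.3 with Halo-Sox2, 88.8 with Halo-Sox2a and 94.4 in the control on this scale. At an Esrrb and a Zfp42 site, Halo-Sox2 stood far below both other libraries, and Halo-Sox2a was below the control by less. A site 57.4 kb past the downstream Esrrb start (chr12:86478690-86479485) was at 10.2, 57.7 and 65.2, and a site 46.8 kb upstream of Zfp42 (chr8:43353489-43354124) was at 24.2, 58.1 and 62.3, in the order Halo-Sox2, Halo-Sox2a and control. Esrrb had a site placed higher with both transgenes (chr12:86395097-86396291), at 56.8 and 66.1 against 25.6 in the control. The sites in this paragraph were picked after their values were seen, except for those over the starts and the region inside Tfcp2l1.

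**Figure D4:**
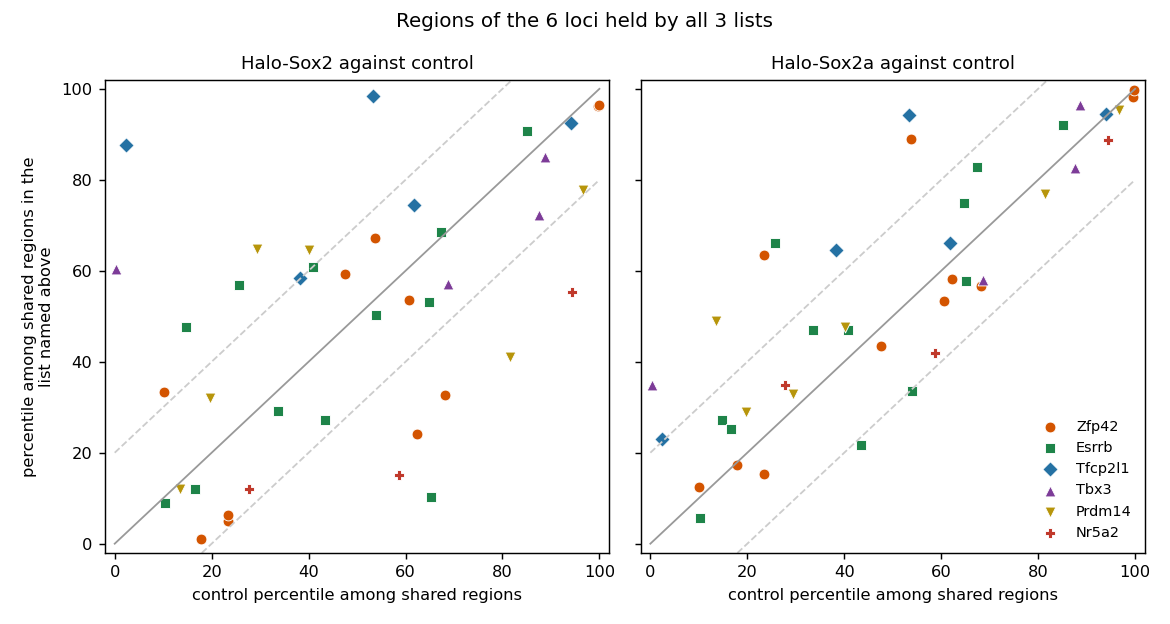
Percentile of the 41 regions held by all 3 lists among the 41984 shared regions of the genome, with the control on the horizontal axis and Halo-Sox2 (left) or Halo-Sox2a (right) on the vertical axis, 1 symbol per gene. The solid line marks equal percentiles and the dashed lines 20 points to either side; 10 regions lie on or above the upper dashed line with Halo-Sox2 and 8 with Halo-Sox2a, and 6 and 2 lie on or below the lower.

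Regions held by all 3 lists at the loci were wider and higher than those of Halo-Sox2 alone or Halo-Sox2a alone, as they were over the genome. The greater width follows in part from the merging, since a union region spans every peak merged into it, and is not a result about the sites. Their median width was 874 bp, against 843 bp for all shared regions, while regions of Halo-Sox2 alone had a median of 367 bp (377 bp over the genome) and regions of Halo-Sox2a alone 293 bp (293 bp). The median percentile of the shared regions was 66.2 with Halo-Sox2, 76.5 with Halo-Sox2a and 70.6 in the control, against 61.5, 72.3 and 68.0 over the genome. Regions of Halo-Sox2 alone had a median percentile of 31.9 (38.7 over the genome) and those of Halo-Sox2a alone 26.4 (19.3). Most sites of Halo-Sox2 alone or Halo-Sox2a alone were therefore in the lower part of their list. They were also narrow beside the median single peak, which was 493 bp in the whole Halo-Sox2 list and 486 bp in the Halo-Sox2a list. Of the 120 regions, 56 had their midpoint inside the body of the member gene. Among them were 12 of the 17 that Halo-Sox2 alone held, 11 of the 27 for Halo-Sox2a alone and 1 of the 7 for the control alone. These counts have no share over the genome beside them, and the bodies ran from 11.9 kb at Zfp42 to 161 kb at Esrrb. No preference for gene bodies is read from them.

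Regions near the boundary of 50 kb were as follows. Just inside it, 49.6 kb before Tfcp2l1, was the Halo-Sox2 peak at percentile 57.8. Just outside it, 51.4 kb beyond Prdm14, was a Halo-Sox2a peak at percentile 22.9 (chr1:13178432-13178730), and 53.2 kb beyond the lower end of Nr5a2 was a region of all 3 lists at percentile 35.4 with Halo-Sox2, 62.4 with Halo-Sox2a and 74.1 in the control (chr1:136789219-136789569).

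Other genes of the pluripotency network were counted in the same way. Within 50 kb of 24 other naive and core pluripotency genes, among them Klf2, Klf4, Nanog, Pou5f1 and Tet2, lay 367 regions, of which 153 (41.7%) were held by all 3 lists, 51 (13.9%) by Halo-Sox2 alone, 46 (12.5%) by Halo-Sox2a alone, 47 (12.8%) by both transgene lists without the control and 25 (6.81%) by the control alone. Of these shares, that of Halo-Sox2a alone lay outside the counting interval of the 6 loci (15.9 to 30.8%) and the other 4 lay inside theirs, and no difference was tested. Over all union regions the same shares were 32.1, 24.3, 12.2, 8.95 and 10.2%. At 12 genes of the formative and primed states, among them Fgf5, Otx2, Pou3f1 and Dnmt3b, lay 177 regions, of which 76 (42.9%) were held by all 3 lists, 29 (16.4%) by Halo-Sox2 alone, 24 (13.6%) by Halo-Sox2a alone, 12 (6.78%) by both transgene lists and 22 (12.4%) by the control alone. Here the shares of Halo-Sox2a alone, of both transgene lists and of the control alone lay outside the counting intervals of the 6 loci. Those of all 3 lists and of Halo-Sox2 alone lay inside theirs. The intervals leave out the counting error of the other genes, and no difference was tested. Among the 42 genes of these groups and the 6 loci, Nr5a2 had the lowest share of regions held by all 3 lists, at 3 of 21 (14.3%), and Zfp42 the highest, at 11 of 17 (64.7%).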

How the data were processed

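ATAC-seq peaks were analysed in 3 libraries, 1 per group: Halo-Sox2, Halo-Sox2a and control. The deposited lists give a chromosome, start, end, name and whole-number score per peak, and the scale of the score is not given in the sources used here. Each deposited peak name carries the name of a single library, so peaks were called per library. The submitters' processing notes name the build mm10 and the tools STAR, SAMtools, MACS2 3.0.0a7, MACS3 and deepTools 3.3.0, with no role or order. The calling threshold, and whether read ends were moved to the transposase cut site, are not given in the sources used here. The lowest score was 13 in each list. The depth is unknown, since only peaks were analysed here.

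Coordinates were made 1-based. Peaks overlapping by at least 1 bp were merged into union regions, and a region belonged to a locus when a peak of it did. Where a list had several peaks in a region, the highest score was used. Gene bodies and promoter sequences came from RefSeq tables of GRCm38.p6, in which 4 of the 6 genes had promoter windows, 6 in all. The gene table gives neither strand nor exons, so no region was placed in an exon or intron. A motif search inside peaks was planned and is not analysed here. The regions named per gene were that over an annotated start, the 3 others with the highest mean percentile, and each region held by some lists with a percentile of 50 or more in a list holding it, 42 in all. The members and gene lists were chosen with earlier results of these data known.

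With 1 library per group no test was made. Wilson intervals (95%) cover counting error only. Alternatives varied the window, the overlap, the peaks kept, the set ranked and the loci pooled. The merging step was tested on simulated data. Python 3.11.15, numpy 2.4.6, pandas 2.3.3, scipy 1.17.1 and matplotlib 3.10.9 were used.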

Additional observations from a re-analysis of the deposited data

Results flagged for a closer look

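At 2 of the 41 regions held by all 3 lists, Halo-Sox2 stood at least 10 points below the control and Halo-Sox2a at least 10 points above it, on percentiles among the regions that all lists share. With 1 library per group this difference was not tested. At the Esrrb region 11.8 kb past the downstream start (chr12:86433198-86433721) the difference from the control was -11.7 points with Halo-Sox2 and 10.2 with Halo-Sox2a. At the region 31.8 kb upstream of Zfp42 (chr8:43338616-43338932) it was -17.0 points with Halo-Sox2 and 40.1 with Halo-Sox2a. Such opposite differences, in either direction, made up 4.88% of the regions at the loci and 5.69% of all 41984 shared regions, 2389 in number.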

How the results depend on the processing

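Of 65 pooled values under alternatives listed at the outset, 56 stayed within the 95% interval of the reported value (Wilson for shares, order statistics for medians), and 9 did not. Within gene bodies only, 22.2% of control peaks met no Halo-Sox2 peak, 3.70% met no Halo-Sox2a peak, and the median control percentile was 60.7. The share of control peaks without a Halo-Sox2a peak was also 7.14% within 20 kb, 4.26% for peaks from the 25th percentile up, and 40.9% where an overlap had to cover 50% of both peaks. Under that stricter overlap, 58.5% of Halo-Sox2a peaks met no control peak and 22.0% of regions were held by all 3 lists. With lists of equal size, 8.49% of regions were of Halo-Sox2 alone. The cause was not tested. Of 96 region counts per locus, 19 moved by more than 1.5 times. Added after the data were seen, leaving out each locus in turn gave 29.1 to 38.4% of regions held by all 3 lists, 35.5 to 45.9% of Halo-Sox2 peaks and 37.5 to 48.8% of Halo-Sox2a peaks without a control peak. The share of Nr5a2 regions with no control peak ran from 58.6% within 100 kb to 86.7% within 20 kb. No paired analysis was possible because each group has 1 library. Depth is unknown and limits every statement on an absent peak.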
